A study of Mus musculus with 18 samples.

Results

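Homeobox and related Pax transcription factors were followed, many of which pattern the forebrain and its borders. They comprised 65 genes measured by 108 probe sets, out of 45037 probe sets tested. They were chosen by symbol from the probe sets annotated to a single gene: the Pou (20 probe sets), Pax (20), Nkx (18), Lhx (15), Six2 to Six6 (10), Dlx (8), Irx (6), Lmx1 (3), Isl (3), Hmx (3) and Otx (2) families. One further probe set, annotated to Pou3f3 and also to 2900092D14Rik, was left out because it names several genes. The 18 arrays were made from BAC transgenic mice on a C57BL/6J X DBA/2J background, whose ages the labels give as 11 and 14 weeks without assigning them to samples. In all of these mice the orexin (orx) coding sequence of the BAC was replaced by a flag-tagged rat poly(A)-binding protein 1 (PABP) cDNA with IRES-eGFP. The 9 IP samples held RNA that came down with the flag tag on antibody beads from whole brains of mice perfused with formaldehyde, and the labels call it polyA RNA from orexin-expressing cells. The 9 WB samples held total RNA of whole brain. No array of mice without the transgene was analysed here, and the labels do not say how many founder lines or animals the samples represent, so that p-values measure only the spread between these samples, which may be technical.

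Homeobox genes encode proteins that bind DNA through a homeodomain and switch on regional programmes in the embryo. In the forebrain, different combinations of them divide the tissue into cortex, ganglionic eminences, hypothalamus, thalamus and eye field, and many stay active in particular neurons of the adult. LIM homeodomain proteins (Lhx, Lmx1, Isl) work with the adaptor Ldb1, Six3 and its relatives with Eya phosphatases, and POU proteins carry a second DNA-binding domain beside the homeodomain. Lhx9 is known from mouse and zebrafish for promoting orexin neurons.

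The values are intensities on a linear scale, and comparisons were made on log2(intensity + 16), written below as log2, so that folds of dim probe sets are understated. Replicates were less alike in IP, where the mean correlation of an array with the others of its group was 0.825 to 0.869, than in WB, where it was 0.936 to 0.944. Every IP array had more signal on the hybridization controls than every WB array (mean log2 of intensity 13.47 to 15.06 against 12.81 to 13.30). That signal was highest in IP replicates 2, 5, 6 and 8. The median intensity was lower on every IP array (153 to 203) than on every WB array (221 to 267). Hcrt, which encodes orexin, had a difference of 0.21 (IP minus WB, SE 0.28, limma adjusted p = 0.568), so the defining gene of the labelled cell type did not pass. Of 8 listed orexin neuron genes, Hcrt and Lhx9 among them, 2 rose, 2 fell and 4 did not pass. Each was read on its probe set with the highest mean, where 21.7% of all genes rose and 21.7% fell. The rises were Plagl1 (1.81) and Nptx2 (1.26), and the falls Pdyn (-1.30) and Igfbp3 (-0.90). Members were mostly dim: their median brightness percentile among all probe sets was 33.4, and 26 of 108 had group means not above those of the trpn controls, bacterial sequences that served as a background level (highest mean log2 of 6.31 in IP and 5.92 in WB), in either group. In bulk RNA, fewer cells of a type and less RNA per cell cannot be told apart. Nor can either be told apart here from how well an RNA came down with the flag tag, or from setting polyA RNA against total RNA.

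Of these transcription factors, 24 of 108 probe sets differed between IP and WB. At a limma adjusted p of 0.05, 17 of 108 probe sets were higher in IP, or 15.7%, against 14.2% of all probe sets tested. Another 7 were lower, or 6.48%, against 30.8% of all, so that 22.2% of the members passed in either direction, against 45.0% of all. The median difference of the members was 0.10, beside -0.23 over all probe sets. That median depended on brightness: over 10 bins of all probe sets it was 0.10 in the dimmest, -0.50 at its lowest and 0.44 in the brightest. At an unadjusted p of 0.05, 35 of 108 members passed, against 51.2% of all probe sets. With a change of at least 2-fold, 9 members were higher and 5 lower, against 7.72% and 21.9% of all probe sets. In 5 members every IP array lay above every WB array, against 5.22% of all probe sets, and in 1 member every IP array lay below, against 10.3%. The spread between arrays was wider in IP, where the members' SDs had a median of 0.78, against 0.49 for WB (log2, n = 9 each). Counted as genes by the brightest probe set, 10 of 65 rose and 4 fell, where 21.7% of 18193 genes rose and 21.7% fell (43.4% in either direction).

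**Figure D1:**
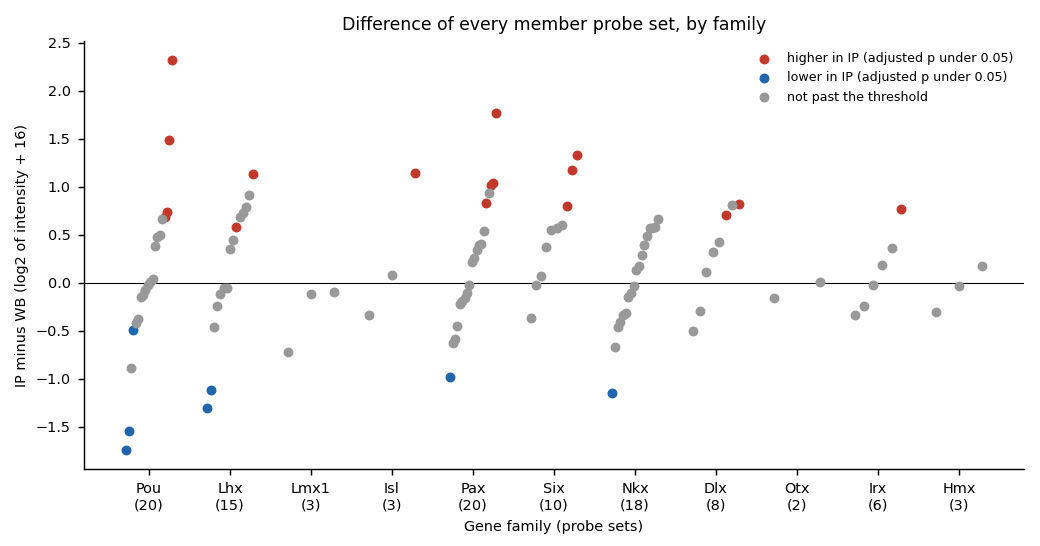
Difference of each of the 108 member probe sets (IP minus WB, log2 of intensity + 16), grouped by gene family, with the number of probe sets under each name. Red points passed the threshold as higher in IP (17), blue points as lower (7), and grey points did not pass (84). The Pou family holds the largest rise, 2.32, and the largest fall, -1.74.

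The counts were also read by brightness. Among the 33 members above the median brightness of all probe sets 9 were higher and 1 was lower, where 21.6% and 36.4% of all such probe sets were. Among the 75 at or below the median brightness 8 were higher and 6 lower, against 6.86% and 25.1%. Of the 26 members with group means not above the trpn controls in either group, 1 was higher (Pax9, 1442229_at) and 2 were lower (Pax7, 1452510_at, and the dim Pou6f1 probe set), against 7.45% and 2.88% of the 5383 probe sets at that level.

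**Figure D2:**
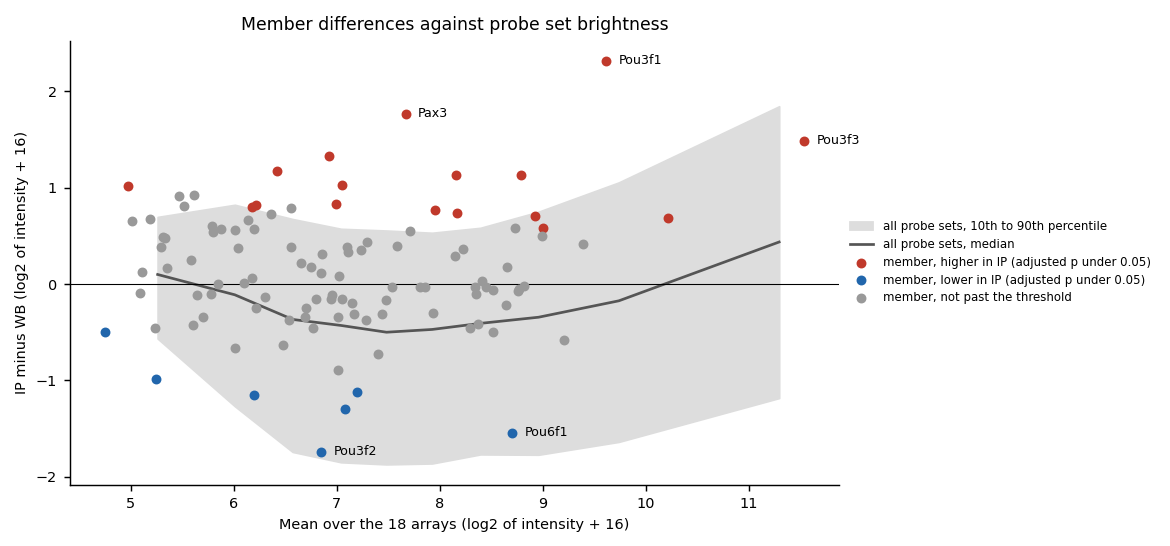
Difference of each member (IP minus WB) against its mean over the 18 arrays, both on log2 of intensity + 16, with the median and the 10th to 90th percentile of all probe sets in 10 bins of brightness as line and band. Most members lie to the left, and Pou3f1, Pax3 and Pou3f3 stand highest, with differences of 2.32, 1.77 and 1.49.

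The largest rise of all members was in Pou3f1, a POU gene of the Pou3f group, factors of neural precursors, upper cortical layers and neuroendocrine hypothalamus. Pou3f1, also known as Oct6 or SCIP, which promotes myelination by Schwann cells and is made by subsets of cortical neurons, had intensities on 1460038_at of 1236 (lowest), 1703 (median) and 2445 (highest) in IP, against 286, 327 and 427 in WB. The groups were far apart, with the lowest IP array above the highest WB array, and the difference of 2.32 (SE 0.15, 4.98-fold) had an adjusted p of 1.09e-11 in limma. Its other probe set, 1422068_at, was dim, with medians of 61.7 in IP and 42.9 in WB, and did not pass (0.66, adjusted p = 0.088).

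Pou3f3, or Brn1, which acts with Brn2 in upper-layer cortical neurons, gave the brightest member probe set. On 1435197_at its intensities were 3893, 4626 and 7680 in IP (lowest, median, highest), against 1570, 1808 and 1909 in WB. Again no IP array reached down to the WB range, and the difference was 1.49 (SE 0.13, 2.8-fold, adjusted p = 1.13e-09). The other Pou3f3 probe set, 1422331_at, had a difference of -0.03 (adjusted p = 0.943), with medians of 227 in IP and 242 in WB.

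Pou3f2, or Brn2, needed for oxytocin, vasopressin and corticotropin-releasing hormone neurons of the mouse hypothalamus, was the only member called in both directions. Its brightest probe set, 1457734_at, had 964, 1464 and 2657 in IP (lowest, median, highest) and 828, 920 and 1007 in WB, and 8 of 9 IP arrays lay above all WB arrays (0.68, SE 0.15, adjusted p = 0.000601). A dimmer one, 1450831_at, went the other way, with 13.7, 26.4 and 175 in IP and 139, 176 and 272 in WB, and 8 of 9 IP arrays lay below all WB arrays (-1.74, SE 0.37, adjusted p = 0.00038). The remaining one, 1453478_at, had medians of 387 in IP and 402 in WB, in overlapping groups (-0.07, adjusted p = 0.785). The size of the fall depended on the added constant, at -2.17 with 1 and -1.15 with 64, and its IP mean of 5.98 lay below the highest trpn mean.

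Pou3f4, known for inner ear, striatal and hypothalamic development, did not pass on either probe set (-0.89, adjusted p = 0.0663, and -0.13, adjusted p = 0.783). The larger fall passed without IP replicate 6 (-1.04) or IP replicate 7 (-1.12). Over the whole Pou3f group 3 of 9 probe sets rose, 1 fell and 5 did not pass. Over the whole Pou family, of which it is a part, 4 of 20 probe sets rose, 3 fell and 13 did not pass. Of all probe sets tested, 14.2% were higher and 30.8% lower.

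**Figure D3:**
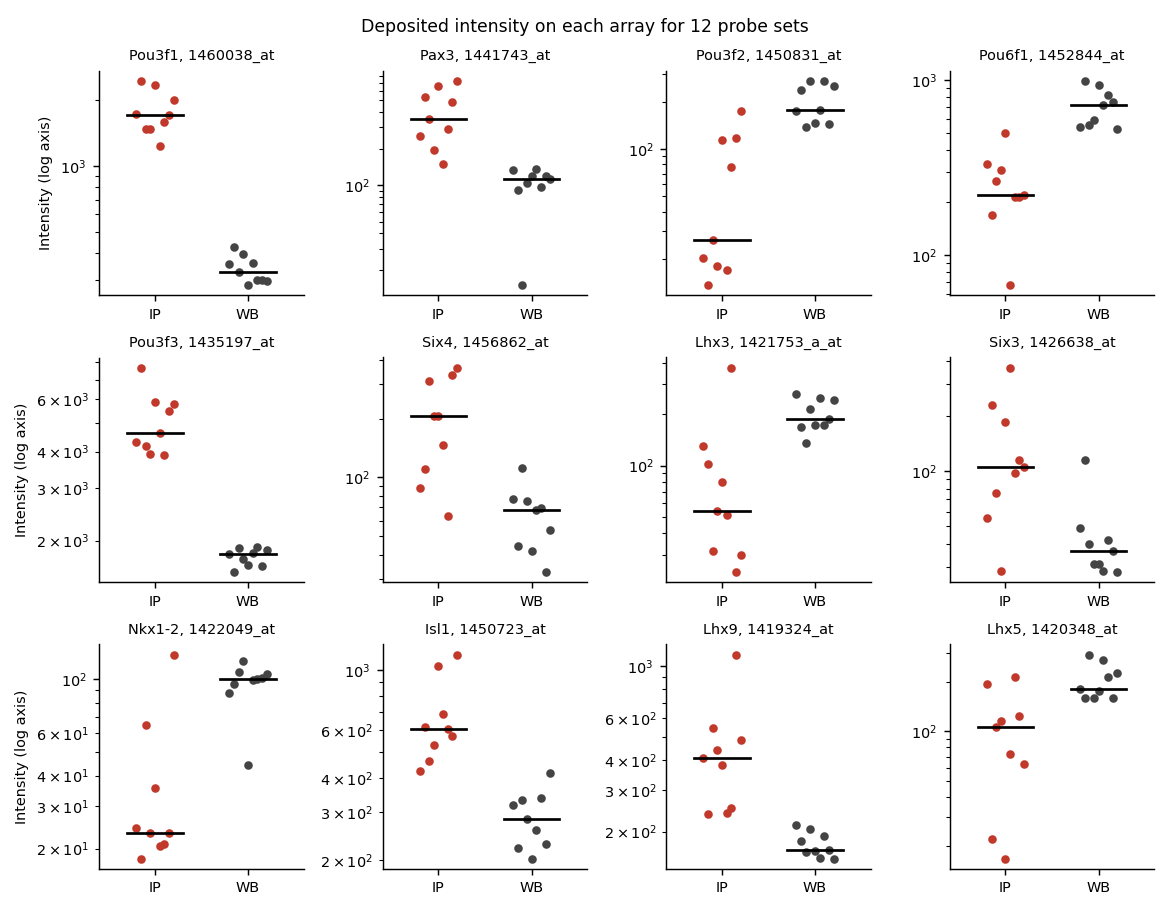
Deposited intensity (log axis, a different range in each panel) on each of the 9 IP and 9 WB arrays for the 12 called probe sets with the largest differences, with a bar at the group median. IP lies wholly above WB in Pou3f1, Pou3f3, Lhx9, Isl1 and Pax3 and wholly below in Pou6f1, and in the remaining panels the groups overlap by 1 or more arrays.

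Pou6f1, or Brn5, a POU factor of mature neurons, fell on both of its probe sets and was the only gene with several probe sets that were all called. On 1452844_at it had 67.5, 219 and 497 in IP (lowest, median, highest), against 524, 716 and 990 in WB. Every IP array lay below every WB array, and the difference was -1.54 (SE 0.26, adjusted p = 2.54e-05). The second probe set, 1420749_a_at, sat at the bottom of the range, with medians of 4.94 in IP and 17.6 in WB, and its call (-0.50, adjusted p = 0.0164) was lost with a constant of 64, after quantile normalization and after centring on the median.

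Of the other POU genes only Pou2f2 passed the threshold. Pou2f2, the octamer factor Oct2 of B cells and neurons, rose on 1427725_a_at, with medians of 363 in IP and 203 in WB (0.74, SE 0.23, adjusted p = 0.0115), while its other probe sets had differences of 0.38 and -0.15. Pou4f1, or Brn3a, of sensory neurons and the habenula, had medians of 688 in IP and 416 in WB on its brighter probe set and did not pass (0.49, adjusted p = 0.0821). The remaining POU genes lie outside forebrain patterning, and none passed. Pou5f1, the pluripotency factor Oct4, had medians of 20.0 in IP and 17.1 in WB, and Pou5f2, a testis gene, 313 and 323. Pou2f3 of tuft cells (-0.38) and Pou4f3 of hair cells (-0.42) did not pass.

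Of 15 Lhx probe sets 2 were higher, 2 were lower and 11 did not pass, where 14.2% of all probe sets were higher and 30.8% lower. Lhx9 had 237, 408 and 1116 on 1419324_at in IP (lowest, median, highest) and 154, 167 and 214 in WB. All 9 IP arrays were above all WB arrays (1.13, SE 0.25, 2.19-fold, adjusted p = 0.0006). It was 1 of 4 Lhx9 probe sets, and not the brightest: 1431598_a_at had medians of 396 in IP and 422 in WB (-0.06, adjusted p = 0.841), 1429905_at 134 and 124 (-0.12, adjusted p = 0.814), and 1441313_x_at 69.4 and 56.1 (0.79, adjusted p = 0.106). In the first of these 3 the 95% confidence interval ran from -0.45 to 0.34.

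Lhx6, which directs cortical interneurons from the medial ganglionic eminence, had 303, 586 and 1225 on 1425094_a_at in IP (lowest, median, highest) and 307, 405 and 501 in WB. It passed narrowly, with 6 of 9 IP arrays above all WB arrays (0.58, SE 0.23, adjusted p = 0.0455), and of 18 single-array omissions the call survived 5, those of IP replicates 1, 7 and 8 and WB replicates 3 and 4 (0.46 to 0.70 over all 18). The dimmer 1422262_a_at had medians of 103 in IP and 57.3 in WB (0.73, adjusted p = 0.0839).

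Lhx3, a factor of pituitary and motor neuron development, fell on 1421753_a_at, with 23.9, 54.4 and 375 in IP (lowest, median, highest) and 137, 187 and 263 in WB. Of the 9 IP arrays 8 lay below all WB arrays and 1 lay above them all (-1.30, SE 0.36, adjusted p = 0.00415). The Lhx3 call was lost after quantile normalization (-0.81, adjusted p = 0.0517). Its other probe set leaned the opposite way without passing (0.68, adjusted p = 0.0755), at medians of 19.5 in IP and 13.4 in WB. Lhx5, of the mammillary hypothalamus and Cajal-Retzius cells, fell with medians of 107 in IP and 181 in WB (-1.12, SE 0.34, adjusted p = 0.01). That call was lost without IP replicates 2, 5, 6 and 8 (-0.59, adjusted p = 0.0968). It was also lost after quantile normalization (-0.66, adjusted p = 0.0993) and after centring on the median (-0.69, adjusted p = 0.083). Lhx2, the cortical selector gene, did not pass, at medians of 353 in IP and 366 in WB (-0.06). Neither probe set of Lhx1 (0.36 and -0.46) or of Lhx4 (0.44 and -0.25) passed. Lhx8, of forebrain cholinergic neurons, had a difference of 0.91 on a dim probe set (medians of 21.8 in IP and 10.4 in WB, adjusted p = 0.0977).

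Isl1, which acts in striatal, hypothalamic arcuate and motor neurons, rose on 1450723_at, with 425, 609 and 1138 in IP (lowest, median, highest) and 203, 284 and 417 in WB. The groups did not overlap (1.14, SE 0.21, 2.2-fold, adjusted p = 7.28e-05). Its second probe set, 1422720_at, overlapped widely, with 19.4, 131 and 227 in IP and 27.9, 145 and 201 in WB (-0.34, adjusted p = 0.537). Isl2, of motor and retinal neurons, had medians of 146 in IP and 108 in WB (0.08, adjusted p = 0.872).

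Lmx1a and Lmx1b, needed for midbrain dopamine neurons and, for Lmx1b, serotonin neurons, did not pass. The Lmx1a probe set was among the dimmest, with 7.07, 13.7 and 31.0 in IP (lowest, median, highest) and 8.84, 20.9 and 30.3 in WB (-0.10, adjusted p = 0.724). Lmx1b had 19.7, 131 and 248 on 1441729_at in IP and 124, 229 and 267 in WB, with 4 IP arrays below all WB arrays (-0.72, adjusted p = 0.0684). On 1421769_at it had 15.2, 26.0 and 129 in IP and 15.2, 44.3 and 69.8 in WB (-0.12, adjusted p = 0.783).

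Of 20 Pax probe sets 4 were higher, 1 was lower and 15 did not pass, where 14.2% of all probe sets were higher and 30.8% lower. Pax3, a factor of dorsal neural tube and neural crest, had 150, 354 and 725 on 1441743_at in IP (lowest, median, highest), against 15.1, 114 and 137 in WB. No WB array reached the IP range (1.77, SE 0.33, 3.4-fold, adjusted p = 0.000118). The other Pax3 probe sets had differences of 0.21 and 0.25 and did not pass. Pax7, the paralogue of Pax3 and a marker of muscle satellite cells, fell on 1452510_at, with 5.79, 11.1 and 18.7 in IP and 8.50, 39.0 and 82.2 in WB (-0.99, SE 0.28, adjusted p = 0.00522). Here both group means were at or below the trpn controls, and the difference was -1.57 with a constant of 1 and -0.48 with 64. The call was lost after centring on the median (-0.56, adjusted p = 0.104). The brighter Pax7 probe set had a difference of -0.16.

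Pax6, which patterns eye and cortex and persists in cerebellar granule cells, did not pass on any of its 5 probe sets, which lay between -0.58 and -0.02. The brightest, 1452526_a_at, had 38.9, 494 and 1194 in IP (lowest, median, highest) and 642, 724 and 805 in WB, with 6 IP arrays below and 3 above the whole WB range (-0.58, adjusted p = 0.239). The steadiest, 1437816_at, had 343, 384 and 636 in IP and 342, 447 and 529 in WB, and its 95% confidence interval ran from -0.37 to 0.32. Another, 1419271_at, had 227, 366 and 598 in IP and 333, 387 and 556 in WB (-0.22, adjusted p = 0.390). The other Pax6 probe sets were dimmer: 1456342_at had 24.8, 111 and 315 in IP and 71.8, 117 and 280 in WB (-0.20), and 1425960_s_at 4.70, 11.0 and 60.1 in IP and 12.3, 19.2 and 106 in WB (-0.45).

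Pax1 and Pax9, paralogues of the vertebral column and thymus, included 3 called probe sets, all higher. Pax9 had medians of 215 in IP and 85.9 in WB on 1421247_at (1.03, SE 0.37, adjusted p = 0.0251) and of 8.10 and 5.02 on 1442229_at (1.02, adjusted p = 0.0227), and its brightest probe set did not pass (0.33). The call on 1421247_at was lost without IP replicate 5 (0.91), WB replicate 5 (0.85) or WB replicate 7 (0.93). It was also lost with array weights (adjusted p = 0.0515), with a replicate block (adjusted p = 0.0527), without IP replicates 2, 5, 6 and 8 (adjusted p = 0.0619) and under hybridization-control scaling. Pax1 had medians of 192 in IP and 80.7 in WB on 1443476_at (0.83, adjusted p = 0.0269), a call lost without WB replicate 8 (0.71). The Pax1 call was also lost with array weights (adjusted p = 0.106), without IP replicates 2, 5, 6 and 8 (adjusted p = 0.0698) and under hybridization-control scaling (adjusted p = 0.986). Pax4, of pancreatic islets, had a difference of -0.11, the Pax5 probe sets 0.54 and 0.39, and those of Pax8 0.93 and -0.63, all short of the threshold.

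Of 10 probe sets of Six2, Six3, Six4, Six5 and Six6, 3 were higher and 0 lower in limma, against 14.2% and 30.8% of all probe sets, and the median difference was 0.56. At an unadjusted p of 0.05, 4 passed, all of them higher, against 51.2% of all probe sets in either direction. Six4, of placodes and muscle, had 63.4, 205 and 365 on 1456862_at in IP (lowest, median, highest) and 32.8, 68.1 and 111 in WB, with 6 of 9 IP arrays above all WB arrays (1.33, SE 0.32, 2.52-fold, adjusted p = 0.00151). Its other 3 probe sets lay between -0.37 and 0.37 and did not pass. Six3, a selector of anterior forebrain and eye, rose on 1426638_at, with 28.6, 105 and 366 in IP and 28.3, 36.7 and 114 in WB (1.18, SE 0.35, adjusted p = 0.00815). The brightest Six3 probe set, 1427523_at, had 231, 318 and 691 in IP and 272, 331 and 403 in WB (-0.03, adjusted p = 0.919), and 1426637_a_at had 27.2, 59.1 and 154 in IP and 16.2, 34.2 and 86.0 in WB (0.56, adjusted p = 0.139). Six6, of retina, pituitary and suprachiasmatic nucleus, passed at 0.80 (adjusted p = 0.0447), with medians of 87.5 in IP and 46.2 in WB, and the call survived 7 of 18 single-array omissions, those of IP replicates 2, 3 and 4 and WB replicates 1, 4, 7 and 9. The calls of Six3 and Six6 were also lost without IP replicates 2, 5, 6 and 8. Six5 (0.55, adjusted p = 0.0816) and Six2 (0.60, adjusted p = 0.211) did not pass.

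Of 18 Nkx probe sets of 12 genes 0 were higher and 1 was lower in limma, against 14.2% and 30.8% of all probe sets, and 3 passed an unadjusted p of 0.05, against 51.2% of all. Nkx1-2, a gene of the embryonic tail bud, fell on 1422049_at, with 18.2, 23.2 and 126 in IP (lowest, median, highest) and 44.0, 100 and 119 in WB, and 7 of 9 IP arrays below and 1 above all WB arrays (-1.15, SE 0.29, adjusted p = 0.00207). The call was lost after quantile normalization (-0.62, adjusted p = 0.0752). The other Nkx1-2 probe sets had differences of 0.57 and -0.67 and did not pass. Nkx2-1, the selector of hypothalamus and medial ganglionic eminence, had 27.98, 149 and 393 in IP and 32.0, 234 and 450 in WB, so that the groups overlapped over most of their range (-0.31, SE 0.44, adjusted p = 0.598). Its 95% confidence interval ran from -1.23 to 0.60. Nkx2-2, of oligodendrocyte precursors, had medians of 230 in IP and 351 in WB (-0.46, adjusted p = 0.219), and Nkx6-2, of myelinating oligodendrocytes, 585 and 365 (0.58, adjusted p = 0.0805). The other Nkx genes, Nkx2-3, Nkx2-4, Nkx2-5, Nkx2-6, Nkx2-9, Nkx3-2, Nkx6-1 and Nkx6-3, had differences between -0.41 and 0.66.

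The Dlx genes, which drive GABAergic neurons of the ganglionic eminences (Dlx1, Dlx2, Dlx5, Dlx6) and development of skin and placenta (Dlx3, Dlx4), gave 2 rises and 0 falls of 8 probe sets in limma, against 14.2% and 30.8% of all probe sets. At an unadjusted p of 0.05 these 2 and Dlx2, which was lower, passed, against 51.2% of all. Dlx1 had 339, 771 and 2283 in IP (lowest, median, highest) and 439, 596 and 684 in WB, with 5 IP arrays above and 2 below the WB range (0.42, SE 0.26, adjusted p = 0.195). Dlx2, its neighbour in the genome, had medians of 384 in IP and 428 in WB (-0.50, adjusted p = 0.0886). Dlx5 passed with medians of 724 in IP and 364 in WB (0.71, adjusted p = 0.0413). Its call survived the omission of IP replicates 2, 6, 8 or 9 or WB replicates 1, 6 or 7, and no other single omission, and its neighbour Dlx6 had a difference of -0.30. The largest rise of the family was in Dlx3, with 46.0, 73.5 and 324 on 1450475_at in IP and 18.2, 39.0 and 64.3 in WB (0.82, adjusted p = 0.0289). That call was lost without IP replicate 9 (0.60) or WB replicate 5 (0.73). It was also lost with array weights (adjusted p = 0.0584), without IP replicates 2, 5, 6 and 8 (adjusted p = 0.0647) and under hybridization-control scaling (adjusted p = 0.824). The other Dlx3 probe set had a difference of 0.11.

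Otx2, of anterior brain and choroid plexus, had 60.9, 167 and 285 in IP (lowest, median, highest) and 91.1, 189 and 265 in WB, with 1 IP array above and 1 below the WB range (-0.16, 95% confidence interval -0.75 to 0.42, adjusted p = 0.672). Otx1, of deep cortical layers, had a difference of 0.01. Of 6 Irx genes, which pattern neural territories, Irx1 alone passed, where 14.2% of all probe sets were higher and 30.8% lower. Irx1 had 164, 282 and 826 in IP and 50.5, 200 and 284 in WB (0.77, SE 0.31, adjusted p = 0.0442). Its call survived the omission of IP replicates 2, 4, 5 or 8 or WB replicates 2, 4, 5 or 7 and no other single omission, and it was also lost with array weights, with a replicate block and without IP replicates 2, 5, 6 and 8. The Hmx genes of inner ear and hypothalamus did not pass, and Hmx2 had 61.9, 178 and 274 in IP and 65.7, 176 and 294 in WB (-0.03, adjusted p = 0.937).

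Probe sets of the same gene were compared where a gene had several. Of 29 genes with several probe sets 12 had none called, 15 had some called in 1 direction and others not called, 1 had calls in both directions (Pou3f2) and 1 had all called (Pou6f1). In 14 of the 29 the differences had both signs, and in the others they had 1 sign. Of the 36 genes with a single probe set 4 were called (Lhx5, Dlx5, Irx1 and Six6), and for those no other probe set could be compared. In all, 16 genes had a rise on at least 1 probe set, 6 had a fall, and 44 of 65 had neither. The counts of this paragraph were not made for all genes, so they cannot be set against a general share. A gene with more probe sets also has more openings for a call.

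**Figure D4:**
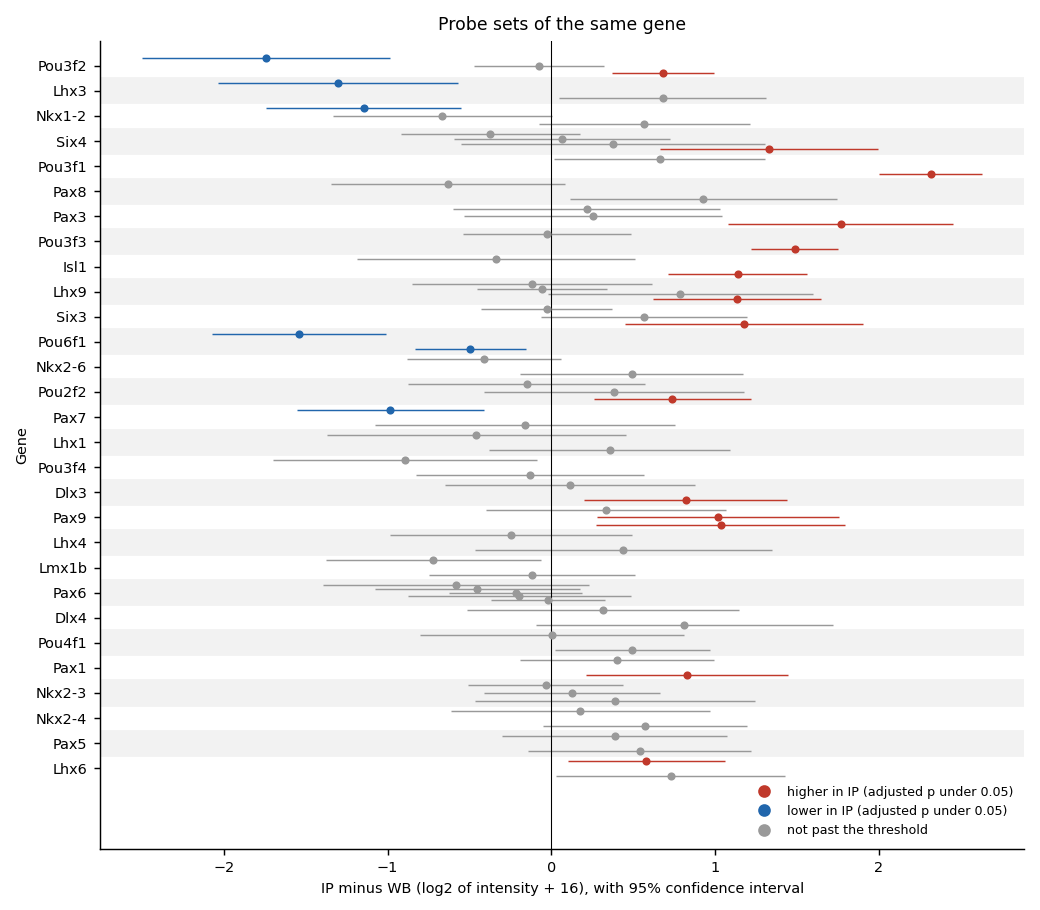
Differences (IP minus WB, log2 of intensity + 16) with 95% confidence intervals for each probe set of the 29 genes that have several, ordered by the range within a gene. Pou3f2 has the widest range, with a red and a blue probe set, while the Pou6f1 probe sets both lie below 0.

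How the arrays were scaled moved the balance of calls. As deposited, 70.8% of the member calls were higher in IP, and 31.6% of the calls over all probe sets. Quantile normalization made 41 members higher and 3 lower (93.2% higher), where 24.1% of all probe sets were higher and 22.0% lower (52.3% of calls higher). Median centring gave 41 and 4 (91.1%), against 28.4% and 18.5% of all (60.6%). Hybridization-control scaling gave 3 and 49 (5.77%), against 3.15% and 63.6% of all (4.72%). Leaving out dim probe sets kept 33 members, of which 9 were higher and 1 lower, against 22.3% and 37.7% of those tested.

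The calls that did not move with these choices were few. Of 24 probe sets 5 were called alike under each setting that tested them and in all 18 single-array omissions: Pou3f1 (1460038_at), Pou3f3 (1435197_at) and Pax3 (1441743_at) as higher, and Pou3f2 (1450831_at) and Pou6f1 (1452844_at) as lower. Hybridization-control scaling left Isl1 at 0.21 (adjusted p = 0.509). Lhx9 then stood at 0.24 (adjusted p = 0.533), and the bright Pou3f2 probe set at -0.27 (adjusted p = 0.280). Without IP replicates 2, 5, 6 and 8, 18 members were higher and 6 lower, against 15.0% and 29.0% of all, and of the 17 higher with all arrays 10 remained. With the replicate number as a block 17 were higher and 7 lower, against 14.0% and 30.4% of all. Of the 84 members not called, 15 passed in at least 1 single-array omission.

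**Figure D5:**
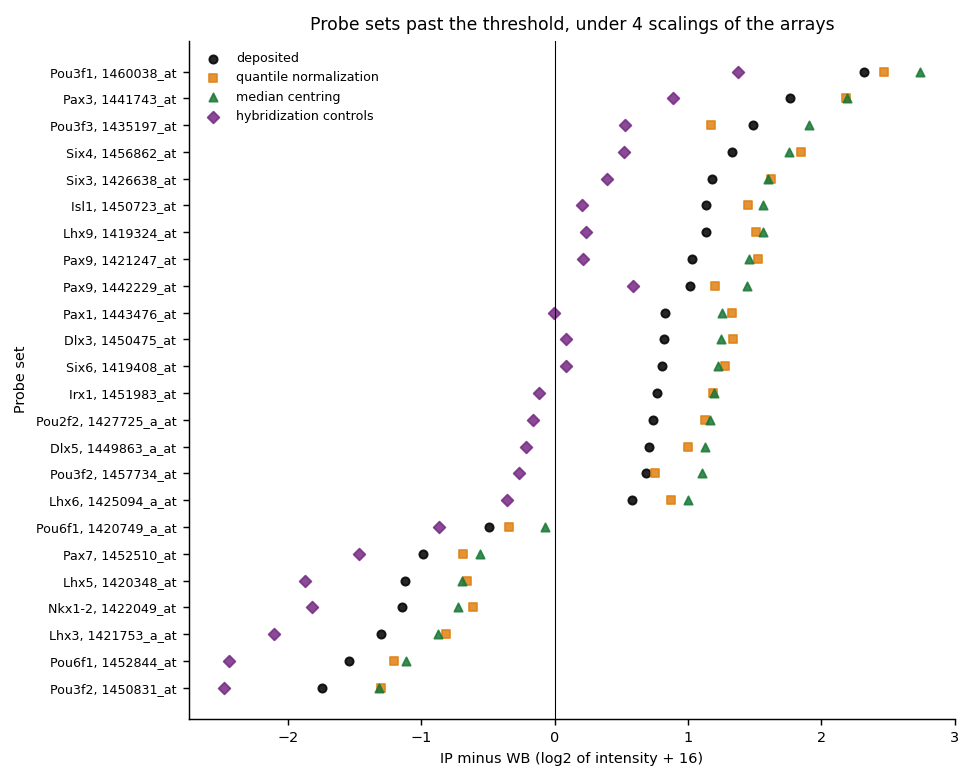
Differences (IP minus WB, log2 of intensity + 16) of the 24 called member probe sets as deposited (black), after quantile normalization (orange), after median centring (green) and after hybridization-control scaling (purple). Purple points lie left of all others in each row, and of the probe sets higher as deposited those of Irx1, Lhx6, Dlx5, Pou2f2, Pax1 and the bright Pou3f2 probe set lie below 0.

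Partner proteins were read on their brightest probe sets, where 21.7% of all genes rose and 21.7% fell. Of 16 measured cofactors of LIM homeodomain proteins and of Six3 and its relatives, 5 rose and 4 fell. Rlim, the ubiquitin ligase that removes Ldb1 and LMO proteins, rose 4.65-fold, with medians of 7609 in IP and 1456 in WB (2.22, SE 0.14, adjusted p = 7.31e-12), and Ldb1, the LIM adaptor itself, fell by 3.10 on the log2 scale (SE 0.35, adjusted p = 1.04e-07), all IP arrays lying below all WB arrays. Of 10 TALE homeobox cofactors 2 rose and 3 fell. Meis2, a homeodomain partner in striatum and cortex, rose 6.18-fold (adjusted p = 1.98e-13) and Pbx4 fell by 1.94 (adjusted p = 3.93e-05). Of 6 Groucho corepressors only Tle4 changed (0.71, adjusted p = 0.00307). Among 34 other patterning factors of forebrain and hypothalamus 7 rose and 4 fell, led by Zic1, a zinc finger factor abundant in cerebellar granule cells (1.65, adjusted p = 7.95e-10), and Prox1, a factor of dentate granule cells (-1.39, adjusted p = 6.5e-06). The list medians were 0.06, -0.22, -0.07 and 0.09 in that order, beside 0.00 for all genes.

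Markers of cell types in which these factors act were set beside them, and their part in the results was not tested. The sums are carried by a few bright genes, so the median difference of each list is given too, beside 0.00 for all genes, of which 21.7% rose and 21.7% fell. Of 8 oligodendrocyte markers, beside Pou3f1, Nkx2-2 and Nkx6-2, 3 rose and 3 fell, and the summed intensity of the list was 48686 to 104092 in IP and 32195 to 44761 in WB. Mbp, a myelin protein gene, alone made up 25667 to 80467 in IP and 15258 to 24789 in WB, and the list's median difference was 0.12. For 7 GABAergic neuron markers, beside Dlx and Lhx6, 3 rose and 3 fell, with sums of 19661 to 31073 in IP and 21640 to 24917 in WB and a median difference of -0.11. Cerebellar markers, beside Pax6, gave 5 rises and 1 fall of 7, at 38507 to 75267 in IP and 19306 to 24341 in WB, with a median difference of 0.98. Of these sums Zic1 alone made up 22111 to 47145 in IP and 8395 to 11981 in WB. Pituitary markers, beside Lhx3, Six6 and Isl1, gave 0 rises and 1 fall of 8, and their sum ranged from 1007 to 8637 in IP and from 1318 to 14824 in WB, with a median difference of -0.45. None of these markers was at 0, which does not show that a marker was present. The pituitary marker Fshb, for example, had mean log2 values of 5.22 in IP and 5.84 in WB, below the highest trpn means (6.31 and 5.92).

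Neighbours in the genome were set side by side. Of the 65 members, 22 stand next to another member among protein-coding genes, in 13 pairs. On the brightest probe sets 11 pairs had neither gene called, 2 had 1 called (Irx1 beside Irx2, and Dlx5 beside Dlx6) and 0 had both called by limma. With 14 of 65 genes called on those probe sets, this count says little about pairs. For Irx1 and Irx2 the differences were 0.77 and 0.36. The Nkx2-1, Nkx2-9 and Pax9 row on chromosome 12 had differences of -0.31, -0.15 and 0.33, and that of Nkx2-4, Nkx2-2 and Pax1 on chromosome 2 had 0.18, -0.46 and 0.40.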

How the data were processed

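Per the submitters' processing notes, the authors made the deposited intensities with MAS5 (version not given in the sources used here), and the values show that each array was brought to a trimmed mean of 500 (lowest and highest 2% dropped). Per the labels' protocols, 5 ng of RNA per sample was amplified with a NuGEN kit. Sample titles gave the groups. Of 45101 probe sets, 64 array controls were left out.

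Log2(intensity + 16) was fitted with limma 3.58.1 in R 4.3.3 (empirical Bayes with intensity trend, two-sided), with Benjamini-Hochberg adjustment over all 45037 probe sets and a threshold of 0.05. A gene's brightest probe set has the highest mean over the arrays. The fit was tested on simulated data that gave both groups the same spread. In the arrays the median SD over all probe sets was 0.74 in IP and 0.34 in WB. The simulation therefore did not check the fit under unequal spread. Members and lists were chosen with earlier results of these data known. Values by array are given for the largest rise and fall of each family, for a fixed set of forebrain genes and, added after their values were seen, for probe sets whose groups did not overlap. Symbols come from the platform annotation, and all 65 were found in a RefSeq gene table used for gene order only. Same-numbered IP and WB arrays were not alike (correlations of deviations from -0.05 to 0.08). The labels state no pairing, and low correlations between arrays of differing RNA cannot exclude it, so whether replicate numbers pair samples is unknown. The number of arrays limits the precision.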

Additional observations from a re-analysis of the deposited data

Results flagged for a closer look

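Of 36 probe sets described array by array, 72 groups of 9 were examined for a sample far from the others. The measure was the gap from that sample to its nearest neighbour, as a share of the group's range, on the log2 scale. The intensities printed beside the shares are on the linear scale. Above Dixon's critical share for 9 samples lay 12, where chance flags about 1 in 20 groups. In IP the low ones were Lmx1b on 1441729_at in replicate 2 (share 0.522, intensity 19.7 against 85.4 to 248), Lhx6 on 1422262_a_at in replicate 9 (0.525, 24.3 against 63.5 to 131), Pax6 on 1452526_a_at in replicate 5 (0.573, 38.9 against 307 to 1194) and Pax6 on 1456342_at in replicate 7 (0.507, 24.8 against 102 to 315). The high ones in IP were Dlx3 on 1450475_at in replicate 9 (0.557, 324 against 46.0 to 116), Six3 on 1427523_at in replicate 5 (0.601, 691 against 231 to 360) and Lmx1b on 1421769_at in replicate 6 (0.577, 129 against 15.2 to 43.7). In WB the low ones were Pax3 on 1441743_at in replicate 3 (0.783, 15.1 against 92.0 to 137), Nkx1-2 on 1422049_at in replicate 5 (0.674, 44.0 against 87.5 to 119), Hmx2 on 1425804_at in replicate 6 (0.513, 65.7 against 146 to 294) and Isl1 on 1422720_at in replicate 4 (0.524, 27.9 against 85.4 to 201). Six3 on 1426638_at was high in WB replicate 2 (0.649, 114 against 28.3 to 48.6). The Pax3 call held without WB replicate 3, with differences from 1.54 to 1.91 over all fits that left out 1 array.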

How the results depend on the processing

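The count of members higher in IP (17) became 41 with quantile normalization, 41 with median centring, 3 with hybridization-control scaling and 9 with dim probe sets left out (33 members tested). The count of members lower (7) became 3, 4, 49 and 1 in the same order. Genes lower in IP numbered 4 by the brightest probe set, where 21.7% of all genes were lower, and 2 by the mean over probe sets. The share of all genes lower by that mean is not given here, so the drop cannot be read as particular to the members. Leaving out 1 array at a time gave 12 to 19 higher and 7 to 10 lower. With the replicate number as a block 17 were higher and 7 lower (14.0% and 30.4% of all), and 15 and 7 of these were the same probe sets. Whether same-numbered arrays pair is not stated in the labels, so this fit is given only as an alternative. Hybridization-control scaling turned Irx1 to -0.12, Lhx6 (1425094_a_at) to -0.36 and Pou3f2 (1457734_at) to -0.27, and median centring turned Pax6 (1437816_at) to 0.40. The cause was not tested. Low signal limits the 26 members not above the trpn controls.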
